A study of Homo sapiens with 4 samples.

Results

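NF-kB subunits and regulators were followed as 10 named genes out of the 58174 genes of an RNA-seq table from human lung cancer cells in which CDH3, the gene of P-cadherin, had been silenced. The genes were taken by name: the subunits NFKB1, NFKB2, REL, RELA and RELB, the inhibitors NFKBIA and NFKBIE, the feedback genes TNFAIP3 and BIRC3, and the repressor NKRF. All 10 were found, each in a single row. The study had 4 libraries, 1 in each of 4 groups: H1299 cells with the control siRNA (siCTR), H1299 cells with the siRNA against CDH3 (siCDH3), HCC827 cells with siCTR and HCC827 cells with siCDH3, all at 48 h after transfection. H1299 is a mesenchymal line of non-small cell lung cancer, whereas HCC827, of epithelial character, comes from an adenocarcinoma driven by mutated EGFR. Each line is a single cell line, the siRNA sequences are not analysed here, and no untransfected cells were analysed here. The design asked which genes respond to transient silencing of CDH3 in either line.

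NF-kB is a family of dimeric transcription factors. In resting cells IkB proteins such as those encoded by NFKBIA and NFKBIE hold most dimers in the cytoplasm. Signals from receptors of tumor necrosis factor, interleukin-1 or microbial products activate the IKK kinase complex, IkB is degraded and dimers of RELA or REL with the NFKB1 product enter the nucleus. A slower branch processes the NFKB2 precursor and releases dimers with RELB. Among the genes that NF-kB switches on are its own inhibitors, so that NFKBIA and TNFAIP3 close a negative feedback loop. In epithelial tumor cells the pathway is known for cytokine production and survival signalling.

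Values are TPM (a relative abundance scaled for transcript length and for the library's total), so levels of different genes can be set side by side within a library. Ratios are log2 ratios of TPM + 1, which understate changes of genes with low TPM. A gene was counted as higher or lower when this ratio was at least 1 or at most -1, that is 2-fold, among genes with at least 5 TPM in at least 1 of the 2 libraries compared. Since each group was 1 library, differences within a line have no replicate check and carry no p-value. TPM keeps no depth, so the precision of each value is unknown.

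The TPM columns summed to between 999859 and 999943, and 10713 to 11329 genes reached 5 TPM. The target CDH3 measured 173 TPM with siCTR and 78.8 TPM with siCDH3 in HCC827, where 45.6% was left. In H1299 it measured 1.21 and 0.169 TPM, so it was under 5 TPM there with the control siRNA already. Of 6 markers fixed for H1299, 6 reached 5 TPM in both H1299 libraries, and of 10 epithelial markers fixed for HCC827, 10 did so in both HCC827 libraries. Of 24 markers of other cell types, at most 3 reached 5 TPM in a library, namely CD68, at 121 to 142 TPM in all 4 libraries, and in HCC827 CD74 (38.5 and 45.3 TPM) and COL1A1 (5.58 and 5.87 TPM). The T cell marker CD3E was at most 0.0468 TPM, and the B cell marker MS4A1 was listed at 0 in all 4 libraries. Mitochondrially encoded genes, named MT-, took 13.5% (siCTR) and 16.4% (siCDH3) of TPM in H1299 and 36.2% and 34.4% in HCC827. The median log2 ratio of all tested genes was -0.11 in H1299, 0.03 in HCC827 and -0.39 between the control libraries, so ratios in H1299 and between the control libraries are also given relative to these medians for the members whose description they bear on. In bulk RNA, fewer cells of a kind and less RNA per cell cannot be told apart.

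Several of these genes carry, near their starts, the short DNA element that NF-kB binds, the kappa B site. The stretches below are shown because they mark which members hold that element and can be set beside the levels that follow. The letters come from the RefSeq promoter table (GRCh38.p14), which covers 250 bases before to 50 bases after each annotated start and held windows for 8 of the 10 genes. It gave no window for RELB and NFKBIE. Capitals mark matches to the kappa B decamer consensus on either strand, and where matches on both strands overlap they run together.
NFKB1, chr4:102501290-102501339, plus strand: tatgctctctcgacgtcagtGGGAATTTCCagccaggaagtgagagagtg
NFKB2, chr10:102394451-102394529, plus strand: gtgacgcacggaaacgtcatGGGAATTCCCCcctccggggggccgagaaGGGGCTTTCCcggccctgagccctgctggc
REL, chr2:60881507-60881557, plus strand: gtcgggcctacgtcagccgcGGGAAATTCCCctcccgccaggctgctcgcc
NFKBIA, chr14:35404801-35404850, minus strand: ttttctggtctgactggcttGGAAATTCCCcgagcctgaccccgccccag
TNFAIP3, chr6:137867172-137867233, plus strand: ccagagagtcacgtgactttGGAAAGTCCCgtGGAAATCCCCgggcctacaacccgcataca
BIRC3, chr11:102317265-102317378, plus strand: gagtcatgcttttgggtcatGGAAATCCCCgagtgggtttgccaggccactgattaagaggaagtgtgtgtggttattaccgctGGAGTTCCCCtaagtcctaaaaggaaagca

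A match was present for 6 of the 8 genes with a window, and 7.09% of the 27305 genes in the table had one in any window (5.91% of 35116 windows). The members were chosen for their part in this pathway, which includes genes that NF-kB switches on. Setting these shares side by side is therefore no test of enrichment. The matches printed above begin between 199 and 47 bases before the annotated start: in BIRC3 at -199 and -135, in NFKB2 at -107 and -78, in NFKBIA at -81, in TNFAIP3 at -67 and -55, in NFKB1 at -49 and in REL at -47. NFKB1 has 2 annotated starts, and the window of the second holds no match. NFKB2 has 3, of which the first holds no match and the third, not printed, has matches at -176 and -21. No match was found in any window of RELA (2 starts) and NKRF (1 start). An empty window says only that these letters are not there. A match is a description of the sequence and does not show binding.

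**Figure D1:**
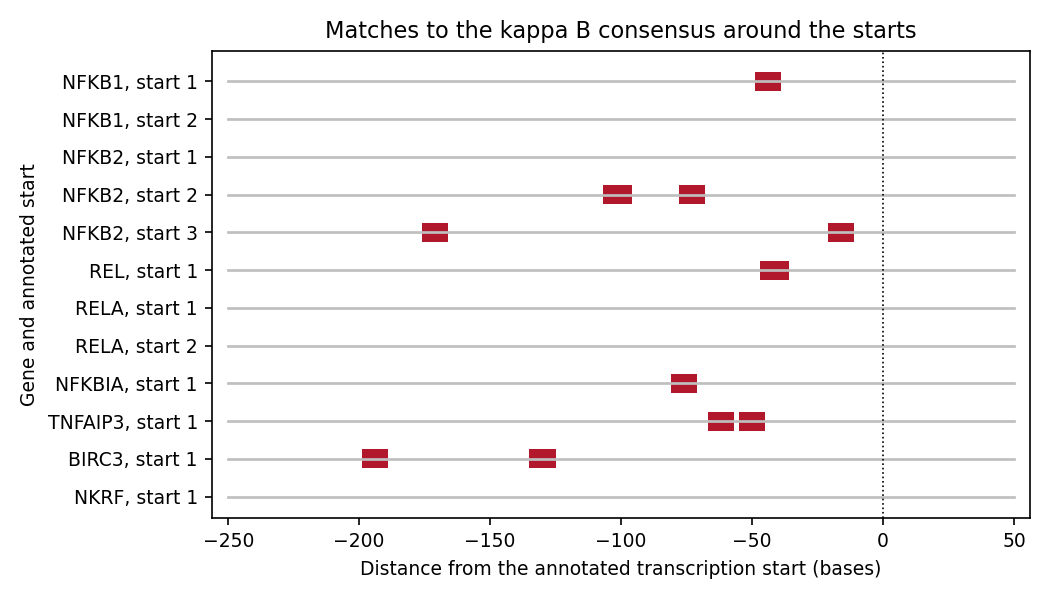
Positions of matches to the kappa B decamer consensus (red boxes) around each annotated start, with the distance from the start in bases on the horizontal axis and 1 line per gene and start. All matches lie upstream, between -199 and -21, and the lines of RELA, NKRF, the second start of NFKB1 and the first of NFKB2 hold none.

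Among the subunits, RELA and NFKB2 gave most of the transcripts in all 4 libraries. RELA (ENSG00000173039), the main activating subunit, measured 78.2 TPM with siCTR and 79.7 TPM with siCDH3 in H1299, and 49.9 and 70.5 TPM in HCC827. Its H1299 log2 ratio was 0.03 (0.13 relative to all genes), and the HCC827 siCDH3 library stood above its control, 1.41-fold on TPM, a log2 ratio of 0.49. Of the 11043 genes tested in HCC827, 95.2% had a lower ratio than RELA, although RELA is not past the 2-fold rule. NFKB1 (ENSG00000109320), whose product is the p105 precursor of p50, the usual partner of RELA, measured 23.0 TPM with siCTR and 21.1 TPM with siCDH3 in H1299, and 35.5 and 46.4 TPM in HCC827. Both HCC827 libraries were above both H1299 libraries. The log2 ratio of NFKB1 was 0.38 in HCC827 and -0.12 in H1299, or -0.01 relative to the median of all genes in H1299 and 0.02 there with quantile normalization.

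NFKB2 (ENSG00000077150), the p100 precursor of p52, measured 63.6 TPM with siCTR and 80.5 TPM with siCDH3 in H1299, and 58.9 and 69.3 TPM in HCC827. It was higher with siCDH3 in both lines (log2 ratio 0.33 in H1299, or 0.44 relative to all genes, and 0.23 in HCC827). RELB (ENSG00000104856), the partner of p52, measured 32.8 TPM with siCTR and 47.5 TPM with siCDH3 in H1299, and 15.7 and 17.3 TPM in HCC827. RELB was also higher with siCDH3 in both lines, at 0.52 in H1299 (0.63 relative to all genes) and 0.13 in HCC827 on the same scale, and both H1299 libraries were above both HCC827 libraries. In H1299, 96.0% of the 11622 tested genes had a lower ratio than RELB and 91.6% had a lower ratio than NFKB2. REL (ENSG00000162924), the c-Rel subunit known best from lymphoid cells, measured 2.51 TPM with siCTR and 1.95 TPM with siCDH3 in H1299, and 10.3 and 9.82 TPM in HCC827. REL did not reach 5 TPM in H1299, so its ratio there (-0.25) was not tested against the rule, and in HCC827 it was -0.06. AC010733.2, a noncoding gene that overlaps REL on the same strand in GENCODE release 29, measured 6.91 TPM with siCTR and 6.22 TPM with siCDH3 in H1299, and 4.15 and 5.91 TPM in HCC827. In H1299 it thus stood above REL, and whether reads were shared between them was not tested.

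**Figure D2:**
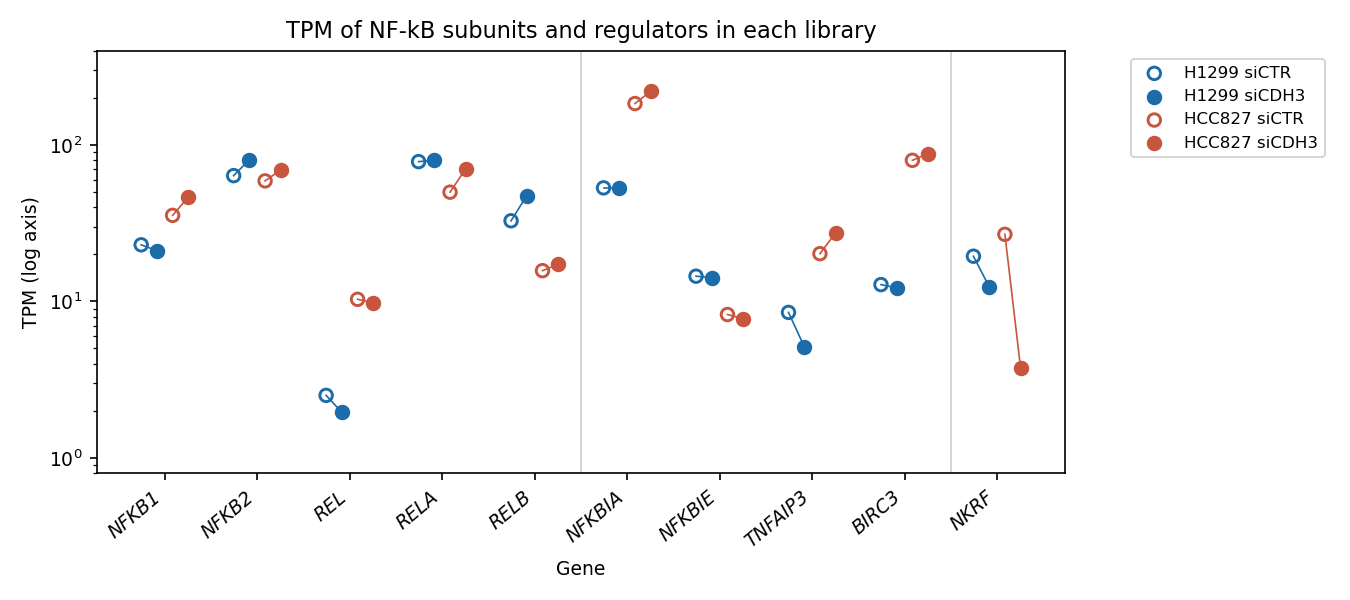
TPM of each of the 10 genes on a log axis, with blue circles for H1299 and red circles for HCC827, open for siCTR and filled for siCDH3, and a line joining the 2 libraries of a line. Grey lines part the 5 subunits, the inhibitors and feedback genes, and NKRF, whose HCC827 pair spans 26.8 to 3.74 TPM.

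The 5 subunits together came to 200.1 TPM with siCTR and 231 with siCDH3 in H1299, and to 170 and 213 in HCC827. RELA made up 39.1% of that sum in H1299 siCTR and 34.5% in H1299 siCDH3, and 29.3% and 33.0% in HCC827. RELB took 16.4% and 20.6% in H1299, and 9.22% and 8.10% in HCC827. NFKB1 took 11.5% and 9.14% in H1299, and 20.8% and 21.8% in HCC827. The pair of the slower branch, RELB with NFKB2, thus went from 48.2% to 55.5% of subunit transcripts in H1299 with siCDH3 and from 43.8% to 40.6% in HCC827. These shares are of transcripts, have no replicate check and say nothing of protein.

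**Figure D3:**
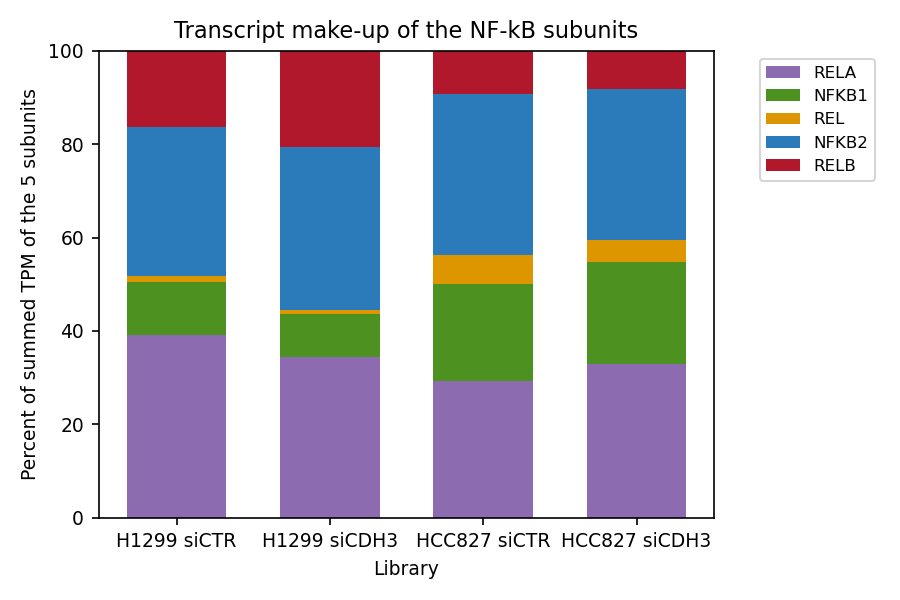
Stacked bars of the percent of summed TPM that each of the 5 subunits takes, 1 bar per library. RELB (top) is 16.4% and 20.6% in H1299 and 9.22% and 8.10% in HCC827, and NFKB1 is larger in both HCC827 bars.

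Of the inhibitors, NFKBIA (ENSG00000100906), which encodes IkB-alpha, measured 53.2 TPM with siCTR and 53.2 TPM with siCDH3 in H1299, and 184 and 220 TPM in HCC827. The H1299 libraries were equal to 3 digits, and the HCC827 libraries were above them and differed by a log2 ratio of 0.26. NFKBIE (ENSG00000146232), which encodes IkB-epsilon, measured 14.5 TPM with siCTR and 14.2 TPM with siCDH3 in H1299, and 8.24 and 7.75 TPM in HCC827. It differed little between the siRNAs, at -0.03 in H1299 (0.08 relative to all genes) and -0.08 in HCC827 as log2 ratios, and was higher in H1299. The summed TPM of NFKBIA, NFKBIB and NFKBIE was 0.543 times (siCTR) and 0.484 times (siCDH3) that of the subunits in H1299, and 1.29 and 1.23 times in HCC827. NFKBIA alone gave 48.9% of these inhibitor transcripts in H1299 siCTR and 84.0% in HCC827 siCTR.

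TNFAIP3 (ENSG00000118503) encodes A20, a ubiquitin-editing enzyme that shuts off signalling to IKK. Its TPM in H1299 was 8.50 with siCTR and 5.15 with siCDH3, and in HCC827 it was 20.2 and 27.4. It was lower with siCDH3 in H1299, at a log2 ratio of -0.63 (-0.52 relative to all genes), and higher in HCC827, at 0.43. The antisense gene AL357060.1 overlaps TNFAIP3 in GENCODE release 29 and stood at 4.73 TPM with siCTR and 5.88 with siCDH3 in HCC827. Because strand use in counting is not given in the sources used here, reads of this pair cannot be told apart. BIRC3 (ENSG00000023445), which encodes the survival protein and ubiquitin ligase cIAP2, measured 12.8 TPM with siCTR and 12.2 TPM with siCDH3 in H1299, and 79.7 and 88.1 TPM in HCC827. Its log2 ratio was -0.06 in H1299 (0.04 relative to all genes) and 0.14 in HCC827, and both HCC827 libraries were above both H1299 libraries.

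Between siCDH3 and siCTR in HCC827, NKRF was the member with the largest difference, while in H1299 TNFAIP3 (-0.63) was slightly further from 0 than NKRF (-0.61). NKRF (ENSG00000186416) encodes NF-kB repressing factor, a nuclear protein that silences some NF-kB promoters and also acts in ribosomal RNA processing. Its TPM in H1299 was 19.4 with siCTR and 12.4 with siCDH3, and in HCC827 it was 26.8 and 3.74. The HCC827 siCDH3 library stood below the other 3, and both siCDH3 libraries were below their controls. In HCC827 14.0% of the control TPM was left, a log2 ratio of -2.55, and 12 of the 11043 tested genes had a lower ratio. In H1299 63.8% was left, a log2 ratio of -0.61 (-0.50 relative to all genes). By level NKRF went from the sixth to the lowest of the 10 genes in HCC827. UBE2A, a ubiquitin-conjugating enzyme gene that overlaps NKRF on the other strand in GENCODE release 29, measured 53.2 TPM with siCTR and 50.0 TPM with siCDH3 in H1299, and 58.3 and 80.6 TPM in HCC827. UBE2A was thus higher in the HCC827 library where NKRF was low, and whether reads were shared between them was not tested.

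In HCC827, 1 of the 10 genes was at least 2-fold lower (NKRF) and 0 were at least 2-fold higher. Of all tested genes, 0.833% were lower and 1.01% higher. The members were chosen with earlier results of these data known, so their count beside these shares is a description and no test. Of the 10, 7 had a ratio above 0, where 57.1% of all tested genes did, and their median was 0.19. In H1299, 9 of the 10 passed the filter and 0 of them differed 2-fold in either direction, where 2.46% of all tested genes did. Of these 9, 3 had a ratio above 0, where 35.2% of all tested genes did, and 6 lay above the median of all genes.

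**Figure D4:**
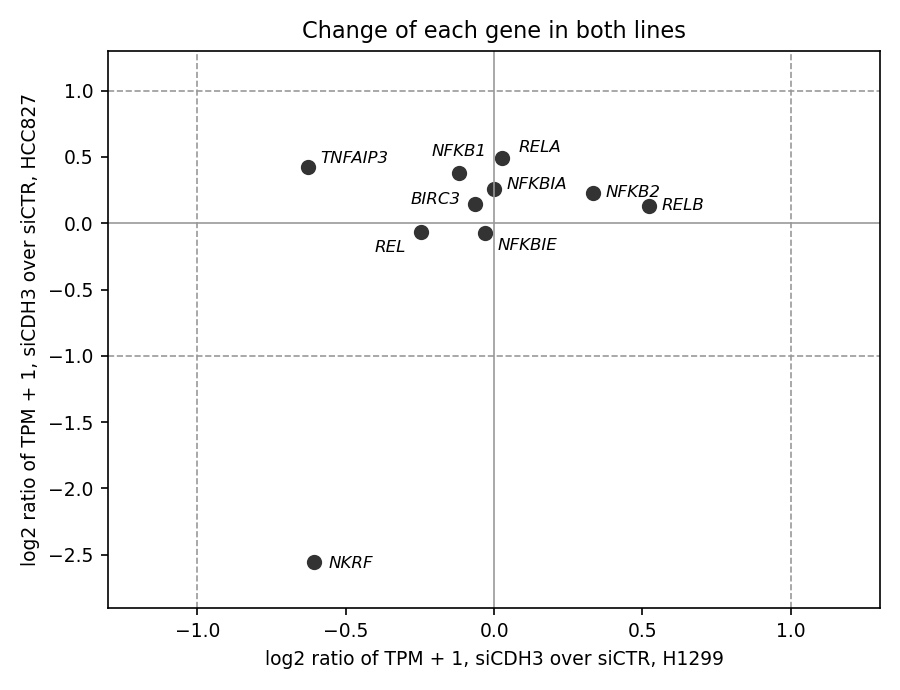
Log2 ratio of TPM + 1, siCDH3 over siCTR, of each gene in H1299 (horizontal) and HCC827 (vertical), with dashed lines at 2-fold. NKRF lies alone at -0.61 and -2.55, while the other 9 genes, REL under 5 TPM in H1299 among them, lie inside the 2-fold lines in both directions.

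A test across both lines used limma with the cell line as a block. Its error combines how far the 2 lines differed in their response with a variance that limma shares across all tested genes. With 1 residual degree of freedom, the difference between the lines for a given gene counts only in part. None of the 10 genes passed: 0 had a Benjamini-Hochberg adjusted p under 0.05, and 1 (NKRF) had an unadjusted p under 0.05. NKRF had a mean log2 change of -1.58 (SE 0.473), with a limma p of 0.0224 and an adjusted p of 0.95, and was lower in 2 of 2 lines. The unadjusted p does not allow for the choice of members with earlier results of these data known. RELB (0.33, SE 0.175) and NFKB2 (0.28, SE 0.152) were higher in 2 of 2 lines, each with a limma adjusted p of 0.95. Over all 12941 genes, limma called 1 gene (0.00773%), with 581 at an unadjusted p under 0.05. That gene, named after its value was seen, was TNFRSF6B (log2 change -6.55, SE 0.178, limma adjusted p 0.00733). TNFRSF6B encodes decoy receptor 3, a soluble member of the tumor necrosis factor receptor family. It measured 80.8 TPM with siCTR and 0.00849 TPM with siCDH3 in H1299, and 108 and 0.00493 TPM in HCC827. Overlaps with other genes were looked up for the members only, so not for TNFRSF6B.

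The genes closest to NKRF across the 4 libraries were found by Euclidean distance between log2(TPM + 1) values centred on each gene's mean, over 12940 other genes. They were TTC28-AS1_2 (distance 0.627), ASXL2 (0.704), ARMT1 (0.781), AC068533.4 (0.837) and LINC00663 (0.945), where NKRF itself lies 1.93 from a flat profile. ASXL2, a chromatin regulator gene, measured 13.9 TPM with siCTR and 7.88 TPM with siCDH3 in H1299, and 12.5 and 3.55 TPM in HCC827. ARMT1, a protein methyltransferase gene, had 32.0, 22.3, 39.1 and 12.8 TPM in the same order. All 5 had their lowest TPM in the HCC827 siCDH3 library, which follows from choosing them by likeness to NKRF and is no finding.

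With the control siRNA, the lines differed most in BIRC3, NFKBIA, REL and TNFAIP3. On TPM, BIRC3 was 6.23-fold, REL 4.11-fold, NFKBIA 3.46-fold and TNFAIP3 2.37-fold above H1299 in the HCC827 control library, and these 4 were past the 2-fold rule (log2 ratios 2.55, 1.69, 1.77 and 1.16). All 4 hold a kappa B match in the stretches printed above, as do NFKB1 and NFKB2, at log2 ratios of 0.60 and -0.11. A match was present in 6 of the 8 members with a window. RELA and NKRF, without a match, were at -0.64 and 0.45, and RELB and NFKBIE had no window. Whether the matches bear on these levels was not tested. RELB was 2.08-fold higher in H1299 siCTR, past the rule at -1.01. The background was high: 13.5% of 12601 genes were at least 2-fold higher in HCC827 and 27.8% lower. The larger share of MT- genes in HCC827 lowers the TPM of every other gene there. With TPM rescaled without MT- genes, the log2 ratios were 3.0 for BIRC3, 2.14 for REL, 2.21 for NFKBIA and 1.59 for TNFAIP3, NFKB1 passed the rule (1.04, from 0.60), RELB did not (-0.60) and NFKB2 turned from -0.11 to 0.32. With a pseudocount of 5, TNFAIP3 (0.90) and RELB (-0.87) did not pass. The remaining members were RELA at -0.64 (-0.21 after rescaling), NFKBIE at -0.74 (-0.35) and NKRF at 0.45 (0.88). Relative to the median of all genes, with MT- genes kept, the values were close to the rescaled ones, for example 2.94 for BIRC3, 0.997 for NFKB1, just under the rule, 0.28 for NFKB2 and -0.62 for RELB. In the siCDH3 libraries TPM was again higher in HCC827, 7.23-fold for BIRC3, 5.03-fold for REL, 4.15-fold for NFKBIA and 5.33-fold for TNFAIP3, while NKRF, 1.38-fold higher in HCC827 with siCTR, was 3.31-fold higher in H1299 with siCDH3.

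The pathway around these genes was described by 5 lists with 106 genes. Of all tested genes, 57.1% had a ratio above 0 in HCC827 and 35.2% in H1299, and in HCC827 1.01% were at least 2-fold higher and 0.833% lower. Counts on the lists are to be read beside these shares. Receptors and ligands had 10 of 11 tested genes with a ratio above 0 in HCC827 (list median 0.24, all genes 0.03) and 5 of 10 in H1299 (median -0.04, all genes -0.11), the same counts as above the median of all genes. In HCC827, 1 was at least 2-fold higher: IL1RAP, the co-receptor of interleukin-1, at 8.11 TPM with siCTR and 17.5 with siCDH3 (log2 ratio 1.02, and 0.99 relative to the median of all genes, where it did not pass). In H1299 IL1RAP had 23.0 and 15.8 (-0.52). The cytokine gene IL1A had 56.7 and 85.3 TPM in HCC827 and IL1B 62.0 and 89.3, while in H1299 IL1A was listed at 0 and IL1B was at 0.12 and 0.04. TNFRSF1B, the type 2 tumor necrosis factor receptor gene, had 27.3 and 40.6 in HCC827. In H1299 the largest ratios were those of TNFRSF11A, the RANK receptor gene, with a TPM of 3.62 and 6.11 (0.62), CD40, with 15.3 and 21.6 (0.48), and the death receptor gene TNFRSF10A, with 12.7 and 10.5 (-0.25), beside IL1RAP.

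The IKK complex and its adaptors had 17 of 23 tested genes above 0 in HCC827 (median 0.03, equal to that of all genes at 2 decimals) and 8 of 24 in H1299 (median -0.08). Against the median of all genes, 11 of 23 lay above it in HCC827 and 13 of 24 in H1299, close to an even split in both lines. In HCC827, 1 was at least 2-fold lower: MYD88, the adaptor of interleukin-1 and Toll-like receptors, at 24.5 TPM with siCTR and 11.6 with siCDH3 (-1.02). In H1299 MYD88 was at 0.19 and 0.30. TAB2, an adaptor of the kinase TAK1, had 51.1 and 30.3 in HCC827 (-0.74). TRAF3, which restrains the slower branch by driving turnover of its kinase NIK, had 8.48 and 15.0 in HCC827 (0.76) and 20.8 and 12.6 in H1299 (-0.68). The kinase gene IRAK4 had 6.56 and 9.21 in HCC827 (0.43) and 18.9 and 9.81 in H1299 (-0.88). MAP3K7, the gene of TAK1, had 43.5 and 28.4 in H1299 (-0.60), and BCL10 had 31.7 and 23.3 (-0.43). TRAF3 and IRAK4 thus lay on opposite sides of 0 in the 2 lines, a difference that was not tested.

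Other IkB proteins and brakes had 11 of 17 tested genes above 0 in HCC827 (median 0.09) and 4 of 16 in H1299 (median -0.20), with 0 past 2-fold in either line. Against the median of all genes, 10 of 17 and 7 of 16 lay above it. NFKBIZ, which encodes the nuclear protein IkB-zeta, a coactivator for part of the NF-kB targets, had a TPM of 74.3 and 145.8 in HCC827 (0.96) and 2.29 and 2.46 in H1299. TNIP3, an A20-binding inhibitor, had 30.0 and 55.5 in HCC827 (0.87) and was listed at 0 in H1299. SOCS1, a suppressor of cytokine signalling, had 8.70 and 12.5 in HCC827 (0.48) and 14.4 and 9.63 in H1299 (-0.53). NFKBIB, which encodes IkB-beta, had 26.9 and 34.7 in HCC827 (0.36). In H1299 RNF11 and TAX1BP1, which work with A20, had log2 ratios of -0.58 and -0.37, and the deubiquitinase gene CYLD had -0.47.

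Established NF-kB targets had 21 of 26 tested genes above 0 in HCC827 (median 0.34), 2 of them at least 2-fold higher, and 4 of 11 in H1299 (median -0.10), 0 of them past 2-fold. Against the median of all genes, 21 of 26 and 6 of 11 lay above it. The 2 were PTGS2, the cyclooxygenase-2 gene, with a log2 ratio of 1.20, and CXCL6, a neutrophil chemokine gene, at 7.91 TPM with siCTR and 17.4 with siCDH3 (1.05). CXCL1 (0.78) and CXCL8 (0.74) followed. In H1299 the largest ratios were those of the adhesion molecule gene ICAM1, with a TPM of 40.7 and 25.2 (-0.67), the urokinase gene PLAU, with 290.1 and 203.5 (-0.51), the caspase-8 inhibitor gene CFLAR (-0.36) and the superoxide dismutase gene SOD2 (-0.32). Earlier results of these data already showed the higher chemokine genes in HCC827 siCDH3, so the count of targets above 0 there is no independent support.

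Of the 5 genes listed as partners of NKRF in RNA processing and their relatives, 0 were past 2-fold in either line. NKRF itself was not past it in H1299. There, 0 of the 5 had a ratio above 0 (median -0.34, all genes -0.11), where 35.2% of all tested genes did. In HCC827, 1 of the 5 did (median -0.01, all genes 0.03), where 57.1% of all tested genes did. Against the median of all genes, 0 of 5 lay above it in H1299 and 1 of 5 in HCC827. XRN2, the nuclear exoribonuclease that binds NKRF, had a TPM of 112 and 91.7 in H1299 (-0.29) and 75.4 and 75.4 in HCC827. The helicase gene DHX15 had 90.6 and 70.8 in H1299 (-0.35) and 78.9 and 78.6 in HCC827 (-0.01), XRN1 had -0.38 and -0.05, and CDKN2AIPNL had -0.22 and -0.13. CDKN2AIP had 10.3 and 7.95 in H1299 (-0.34) and 4.08 and 6.20 in HCC827 (0.50). Of the 106 genes on these lists, 87 could be tested with limma across both lines, and 0 had an adjusted p under 0.05.

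**Figure D5:**
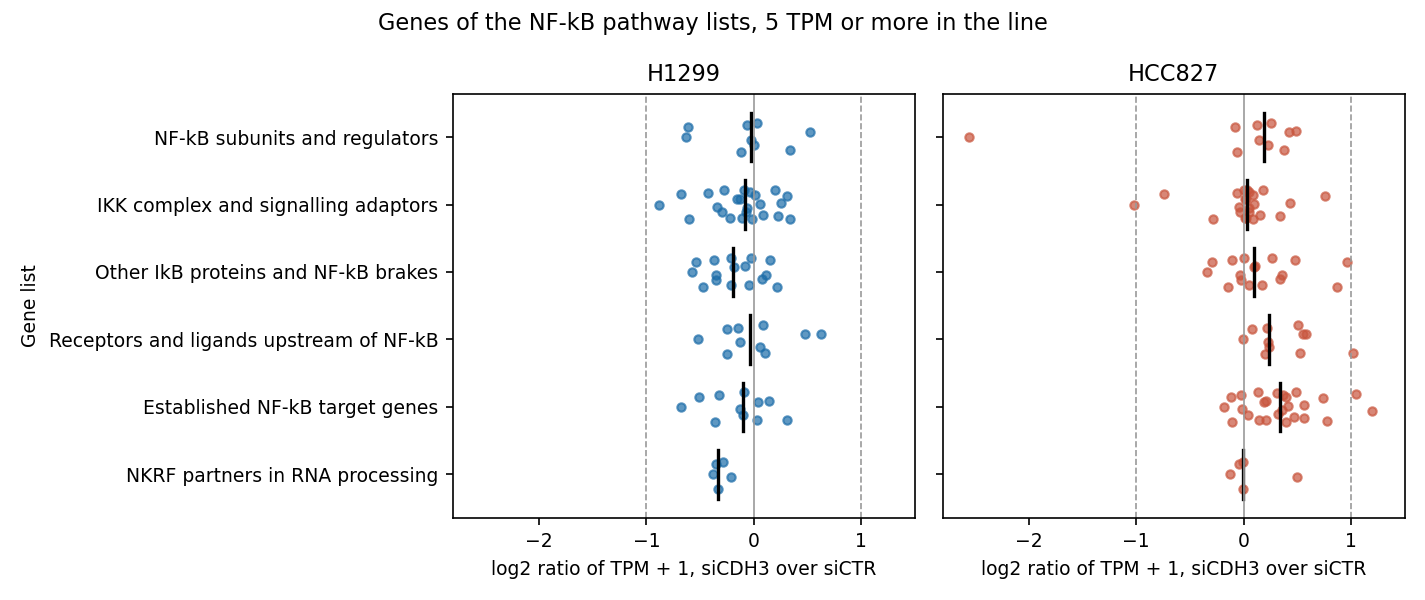
Log2 ratio of TPM + 1, siCDH3 over siCTR, of each gene with at least 5 TPM in 1 of the line's 2 libraries, by list, in H1299 (left) and HCC827 (right), with black bars at list medians and dashed lines at 2-fold. In HCC827 the targets have a median of 0.34 and NKRF lies alone at -2.55, and in H1299 all points lie inside the 2-fold lines.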

How the data were processed

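RNA-seq of 4 libraries (H1299 and HCC827, siCTR or siCDH3, 1 library per group, 48 h) was analysed. The authors deposited TPM per gene for 58174 genes, 1 column per library, not pooled. The build is hg19 per the submitters' processing notes. No source used here gives the aligner, the counting tool, the annotation, the use of strand or the depth. Columns were matched to libraries by the names in the labels. Of the gene IDs, 99.4% are in GENCODE release 29, used only for gene overlaps.

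Log2 ratios of TPM + 1 were taken for genes with at least 5 TPM in at least 1 library compared, and 2-fold differences were counted. The limma model (limma 3.58.1 under R 4.3.3) took log2(TPM + 1) values of 12941 genes, with cell line as a block (1 residual degree of freedom), with Benjamini-Hochberg adjustment. Pairing comes from the line named in the labels. The limma step was tested on simulated data in which both lines were given the same changes. Lines that respond differently, as for NKRF here, were not simulated. The p-values rest only on the spread between these libraries, with each gene's variance drawn toward a value shared by all tested genes.

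All members are named, with up to 4 genes per list and line with the largest ratios and the 5 genes nearest to NKRF. UBE2A, AL357060.1 and AC010733.2 are named for their overlap. Members and lists were chosen with earlier results of these data known. Alternatives were pseudocounts, filters, scalings, size rules, limma without the block or with a trend, and each library left out. Python 3.11.15, pandas 2.3.3, numpy 2.4.6 and matplotlib 3.10.9 were used.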

Additional observations from a re-analysis of the deposited data

Results flagged for a closer look

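Of the 10 members, TNFAIP3, NFKB1 and BIRC3 had log2 ratios of opposite sign in the 2 lines, with siCDH3 above siCTR in HCC827 and below it in H1299. NFKBIA is listed with them, but its H1299 libraries were equal to 3 digits (53.2 TPM in both), so it has no readable direction there. The difference, HCC827 minus H1299, was 1.05 for TNFAIP3, 0.498 for NFKB1, 0.260 for NFKBIA and 0.208 for BIRC3. With 1 library per group these differences were not tested. With the median of all genes set to 0 in each line, the H1299 ratios became -0.52 for TNFAIP3, -0.01 for NFKB1, 0.11 for NFKBIA and 0.04 for BIRC3. The opposite sign thus held for TNFAIP3 and not for BIRC3, and NFKB1 was too near 0 in H1299 to have a readable direction. With quantile normalization NFKB1 was at 0.02 in H1299, so of these genes only TNFAIP3 kept the opposite sign under both of these scalings.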

How the results depend on the processing

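NKRF stayed at least 2-fold lower in HCC827 siCDH3 under each pseudocount and scaling run, at log2 ratios of -2.81 to -1.86. The rest of its 10 alternatives, filters and size rules, cannot change a ratio. Under the limma alternatives that kept every library, 0 members passed. Counts of all genes past the rule moved by more than 1.5 times as follows. In H1299 the 286 genes became 138 with a pseudocount of 5, 536 with a filter at 1 TPM or none, 151 with a filter at 20 TPM, 1199 at 1.5-fold (2 members, TNFAIP3 and NKRF) and 38 at 4-fold. In HCC827 the 203 genes became 99, 373 with either looser filter, 98, 650 and 33 under the same settings. Between control libraries the 5195 genes became 3034 with a filter at 20 TPM and 2199 at 4-fold, and the 5 members became 3 with a pseudocount of 5, 8 at 1.5-fold and 1 at 4-fold. With the median set to 0, the share of lower genes among those past 2-fold went from 64.3% to 48.9% in H1299 and from 67.4% to 48.7% between control libraries. limma called 0 genes in place of 1 with no filter, without MT- genes, with quantile normalization and with no replicate block, where the pairing by line is dropped. Leaving out each library required dropping the pairing, so the line difference enters these values, and the lone sample of an arm is assumed to vary like the rest. limma then called 0 to 0 genes, and log2 changes ran from -0.42 to 0.682 for NFKB1, 0.175 to 0.39 for NFKB2, -1.09 to 0.781 for REL, -0.0612 to 0.577 for RELA, -0.379 to 1.03 for RELB, -0.886 to 1.15 for NFKBIA, -0.45 to 0.342 for NFKBIE, -1.21 to 1.0 for TNFAIP3, -1.34 to 1.42 for BIRC3 and -2.33 to -0.831 for NKRF. With quantile normalization NFKBIE was at 0.00122. The causes of these moves were not tested. Depth is unknown, which limits the values of REL in H1299 and NKRF in HCC827 siCDH3 most.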
